A study of Mus musculus with 8 samples.

Results

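The 8 genes described here, *Srebf2*, *Hmgcs1*, *Sqle*, *Idi1*, *Fdft1*, *Insig1*, *Cyp51* and *Lss*, belong to the cholesterol synthesis pathway and its control. They were picked by name with earlier results of these data known, and each was found as a single row among the 24542 gene symbols of the 8 RNA-seq tables.

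RNA was sequenced from TX1072, a line of female mouse embryonic stem cells (ESCs) from a cross of *Mus musculus castaneus* (Cast) and C57BL/6 (B6), in which doxycycline (DOX) induces *Xist* from the B6 X chromosome. There were 4 groups of 2 samples, namely *Hdac3*+/+ cells (labelled WT) and *Hdac3*-/- cells (labelled Hdac3KO), both sampled at 0 hr and following 24 hr with 1 ug/ml DOX. All cells grew in serum with LIF and 2i, and all carry the inducible *Xist* allele. The *Hdac3*+/+ samples are duplicates of 1 line, and the *Hdac3*-/- samples come from 2 deletion clones made with CRISPR/Cas9, so the spread among *Hdac3*-/- samples includes differences between clones. Only the *Hdac3*-/- cells went through transfection, puromycin selection and growth from picked clones. A difference between genotypes therefore cannot be told apart from one that came with this derivation. The labels number the *Hdac3*-/- samples 1 and 2 without naming the clone, and the study calls the samples biological duplicates.

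Cholesterol is made from acetyl-CoA through mevalonate, isoprenoid units, squalene and lanosterol. *Srebf2* encodes SREBP2, the transcription factor that switches the enzymes on when membranes are short of sterol, after the escort protein SCAP carries it from the endoplasmic reticulum to the Golgi and proteases release it. INSIG1, itself encoded by an SREBP target, holds SCAP back when sterol is plentiful. HDAC3 is the histone deacetylase of the NCoR and SMRT corepressor complexes, which nuclear receptors of lipid metabolism recruit in many tissues.

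The order of the chain runs from *Hmgcs1* (HMG-CoA synthase, an early step of the mevalonate chain) through *Idi1* (isopentenyl diphosphate isomerase), *Fdft1* (squalene synthase, the first step committed to sterols), *Sqle* (squalene epoxidase, the second flux-controlling enzyme), *Lss* (lanosterol synthase) and *Cyp51* (lanosterol demethylase). All 8 genes are autosomal. In GENCODE M21 on GRCm38, *Srebf2* (ENSMUSG00000022463.8) spans chr15:82147181-82205379 and *Sqle* (ENSMUSG00000022351.14) spans chr15:59315077-59331192. *Hmgcs1* and *Idi1* lie on chromosome 13, *Insig1* and *Cyp51* on chromosome 5, *Lss* on chromosome 10 and *Fdft1* on chromosome 14.

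Promoter sequence was at hand for 6 of the 8 genes, all but *Sqle* and *Fdft1*. Sequence upstream of *Hmgcs1*, *Srebf2*, *Cyp51* and *Insig1* is shown, since the first 3 hold letters resembling the sterol regulatory element read by SREBP2 and *Insig1*, also an SREBP target, holds none of these letters in the window searched. It is RefSeq promoter sequence of build GRCm38.p6, written 5′ to 3′ on the strand of the gene and ended before the first exon that GENCODE M21 gives. Capitals mark TCACNCCAC or TCACCNCA (the latter overlaps the former in *Hmgcs1*) and CCAAT or, on the other strand, ATTGG.
*Hmgcs1*, chr13:119690101-119690350, plus strand: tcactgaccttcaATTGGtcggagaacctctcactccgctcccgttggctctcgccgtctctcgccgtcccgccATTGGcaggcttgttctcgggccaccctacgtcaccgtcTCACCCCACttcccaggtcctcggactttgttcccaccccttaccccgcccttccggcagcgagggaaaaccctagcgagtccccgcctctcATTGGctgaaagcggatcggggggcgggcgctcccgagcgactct
*Srebf2*, chr15:82147019-82147180, plus strand: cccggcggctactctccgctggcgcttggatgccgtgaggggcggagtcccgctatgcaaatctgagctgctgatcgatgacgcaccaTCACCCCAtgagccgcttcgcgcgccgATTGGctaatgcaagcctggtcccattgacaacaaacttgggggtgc
*Cyp51*, chr5:4104747-4104947, minus strand: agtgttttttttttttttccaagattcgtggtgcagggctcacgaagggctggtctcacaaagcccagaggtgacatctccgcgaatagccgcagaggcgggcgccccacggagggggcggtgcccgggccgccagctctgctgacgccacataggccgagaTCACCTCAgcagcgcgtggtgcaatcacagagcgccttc
*Insig1*, chr5:28071162-28071362, plus strand: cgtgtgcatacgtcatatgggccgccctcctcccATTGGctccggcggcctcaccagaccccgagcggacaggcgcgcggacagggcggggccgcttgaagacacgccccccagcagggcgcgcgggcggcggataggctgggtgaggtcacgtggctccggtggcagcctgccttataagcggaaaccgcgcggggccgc

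The motifs were chosen after the sequences were seen, and each was searched on both strands in the 250 bases before every RefSeq gene start. TCACNCCAC was found upstream of *Hmgcs1* and in 1.05% of 32851 promoters. TCACCNCA was found upstream of *Hmgcs1*, *Srebf2* and *Cyp51* and in 3.61% of promoters. CCAAT was present upstream of all 6 genes, in *Cyp51* nearer the start than the stretch shown, against 33.9% of promoters, and so was GGGCGG, the GC box read by SP1, against 32.7%. CACGTG, the E-box, was found upstream of *Insig1* and not of the other 5, against 6.02%. A match describes these letters only, and no binding was measured.

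Reads on exons totalled 6940375 to 17125156 per sample, and the 8 genes had between 360 and 5723 reads each in every sample. The targeted gene followed the labels, since *Hdac3* had 37.7 and 42.6 CPM (reads scaled to a common library size) in *Hdac3*+/+ cells at 0 hr and 5.87 and 7.48 CPM in *Hdac3*-/- cells. *Xist* rose with DOX in both genotypes, with log2 fold changes of 7.60 in *Hdac3*+/+ and 6.71 in *Hdac3*-/- cells. The ESC markers stood at a summed 4265 to 5130 CPM. Of the 5 fibroblast markers, *Col1a1* had 16.2 to 29.3 CPM, *Thy1* 11.2 to 28.0 CPM and *Col1a2* 0.70 to 3.12 CPM, and *Col3a1* and *Postn* had at most 1 read in any sample. Chromosome 16 was lower in *Hdac3*-/- replicate 2, with a median log2 ratio to *Hdac3*+/+ of -0.44 at 0 hr and -0.46 at 24 hr. The median B6 share of allelic reads on chromosome 16 was 0.50 and 0.49 in that replicate. It was 0.33 to 0.34 in the *Hdac3*+/+ samples and 0.33 in *Hdac3*-/- replicate 1, so the uneven alleles were in these other samples. Copy number was not tested. None of the 8 genes lies on chromosome 16. On the 5 chromosomes that carry them the median log2 ratios of all samples lay between -0.076 and 0.0288.

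Levels can be compared between genes only per length, for which TPM, the read count divided by exon length and scaled to a common total, was used. In *Hdac3*+/+ cells at 0 hr *Srebf2* was the most abundant, at 205.4 ± 11.4 TPM (SD, n = 2), and *Lss* the least, at 19.2 ± 2.18 TPM. The other 6 lay close together, from *Insig1* at 110.4 ± 13.01 and *Idi1* at 108.0 ± 1.86 through *Fdft1* at 97.6 ± 9.56, *Cyp51* at 89.7 ± 4.75 and *Sqle* at 85.6 ± 4.73 to *Hmgcs1* at 68.5 ± 1.69 TPM (SD, n = 2 each). Among these, the gap between *Sqle* and *Hmgcs1* exceeded the sum of their SDs, and that between each of the other neighbours did not. These TPM use the joined exons of all transcripts. With the length of the longest RefSeq-linked transcript, a choice added after the data were seen, *Sqle* came second at 120.5 ± 7.10 TPM, and *Srebf2* and *Lss* kept the top and bottom places.

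The first comparison set *Hdac3*-/- against *Hdac3*+/+ cells before *Xist* was induced. *Sqle* was the one gene of the 8 that passed the test, and its level in *Hdac3*-/- cells was 46.9% of that in *Hdac3*+/+ cells. Its levels, as CPM scaled by TMM over the 8 samples, were 118.4 and 136.8 in *Hdac3*+/+ replicates 1 and 2 at 0 hr and 57.9 and 61.9 in *Hdac3*-/- replicates 1 and 2. At 24 hr they were 117.6 and 111.2 in *Hdac3*+/+ and 61.0 and 59.6 in *Hdac3*-/- cells. The 4 *Hdac3*-/- samples thus lay close to each other, below all of the 4 *Hdac3*+/+ samples.

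The log2 fold change of *Sqle* at 0 hr was -1.10 ± 0.11 (SE), a 2.14-fold decrease (edgeR's quasi-likelihood test, adjusted p = 0.0016). At 24 hr it was -0.93 ± 0.10, a 1.90-fold decrease (edgeR's quasi-likelihood test, adjusted p = 0.0009). *Sqle* passed the threshold of 0.05 under all 12 alternative settings run at 0 hr and all 16 run at 24 hr, samples left out included, with adjusted p between 2.384e-16 and 0.022. In the same test 13.6% of 13226 genes changed at 0 hr, 7.24% downward and 6.33% upward, and 3.6% fell with a log2 fold change below -1.

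The regulators came next. *Srebf2* had 398.1 and 393.5 CPM in *Hdac3*+/+ cells at 0 hr, and 342.7 and 312.2 CPM in *Hdac3*-/- cells. At 24 hr it had 402.9 and 396.0 against 357.4 and 305.6 CPM. Each *Hdac3*-/- value lay below each *Hdac3*+/+ value, and replicate 2 was the lower of the *Hdac3*-/- samples at both times. The log2 fold changes were -0.28 ± 0.09 and -0.27 ± 0.09, and neither passed the threshold (edgeR's quasi-likelihood test, adjusted p = 0.077 and 0.084). They did pass without the TPM filter (adjusted p = 0.045 and 0.042) and without *Hdac3*-/- replicate 1 of the same time (0.0092 and 0.035).

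*Insig1*, the retention factor, had 96.0 and 86.8 CPM in *Hdac3*+/+ and 75.2 and 76.4 CPM in *Hdac3*-/- cells at 0 hr, followed by 93.2 and 92.0 against 74.9 and 66.2 CPM at 24 hr. The groups did not overlap at either time. Its log2 fold change was -0.28 ± 0.11 at 0 hr (edgeR's quasi-likelihood test, adjusted p = 0.12) and -0.39 ± 0.10 at 24 hr, which passed the threshold (edgeR's quasi-likelihood test, adjusted p = 0.033). That call was lost when the 4 samples at 24 hr were fitted alone (adjusted p = 0.059), and without *Hdac3*+/+ replicate 1 or 2 or *Hdac3*-/- replicate 2 at 24 hr it had adjusted p of 0.17, 0.15 and 0.13. Without either *Hdac3*+/+ sample at 0 hr, which enter the fit only through the shared spread, it was 0.050.

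*Idi1* had 99.4 and 103.7 CPM in *Hdac3*+/+ and 82.3 and 81.0 CPM in *Hdac3*-/- cells at 0 hr, and 103.2 and 98.96 against 82.6 and 81.7 CPM at 24 hr. The groups did not overlap, and *Hdac3*-/- cells were at 80.4% and 81.3% of the *Hdac3*+/+ mean. The log2 change was -0.32 ± 0.10 at 0 hr (edgeR's quasi-likelihood test, adjusted p = 0.066) and -0.30 ± 0.08 at 24 hr (adjusted p = 0.041). The second value lies close to the threshold: it was 0.051 with limma and 0.12 with DESeq2, and it rose above 0.05 whichever of the 8 samples was left out, to at most 0.22. At 0 hr *Idi1* passed in the fit of all 8 samples (adjusted p = 0.023) and without *Hdac3*-/- replicate 1 (0.031).

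*Lss*, which closes the sterol rings, had 58.0 and 52.7 CPM in *Hdac3*+/+ and 45.5 and 40.8 CPM in *Hdac3*-/- cells at 0 hr, and 51.9 and 53.5 against 46.5 and 36.1 CPM at 24 hr. The groups did not overlap. The log2 fold changes of -0.37 ± 0.12 and -0.35 ± 0.14 did not pass the threshold (edgeR's quasi-likelihood test, adjusted p = 0.093 and 0.13), but did without *Hdac3*-/- replicate 1 of the same time (0.012 and 0.046).

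*Fdft1* had 114.5 and 106.6 CPM in *Hdac3*+/+ and 90.9 and 102.4 CPM in *Hdac3*-/- cells at 0 hr. At 24 hr the values were 113.9 and 114.7 against 95.2 and 102.2 CPM. Here too the groups did not overlap, but *Hdac3*-/- replicate 1 was the lower sample. The log2 fold changes were -0.20 ± 0.11 and -0.21 ± 0.10 (edgeR's quasi-likelihood test, adjusted p = 0.25 and 0.18).

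*Cyp51* had 98.9 and 114.0 CPM in *Hdac3*+/+ and 89.4 and 100.7 CPM in *Hdac3*-/- cells at 0 hr, and 90.5 and 94.4 against 92.9 and 81.8 CPM at 24 hr. The groups overlapped at both times. The log2 fold changes were -0.17 ± 0.11 and -0.08 ± 0.11 (edgeR's quasi-likelihood test, adjusted p = 0.37 and 0.67). Without *Hdac3*-/- replicate 2 at 24 hr the second value was 0.0061.

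*Hmgcs1* differed most between the *Hdac3*-/- samples. It had 80.3 and 88.8 CPM in *Hdac3*+/+ cells at 0 hr, 89.3 CPM in *Hdac3*-/- replicate 1 and 51.9 CPM in *Hdac3*-/- replicate 2. At 24 hr it had 91.6 and 84.2 CPM in *Hdac3*+/+ cells, and 97.2 and 54.0 CPM in *Hdac3*-/- replicates 1 and 2. Replicate 1 was therefore at 105.6% and 110.6% of the *Hdac3*+/+ mean, and replicate 2 at 61.4% and 61.5%.

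The mean log2 fold changes of *Hmgcs1*, -0.26 ± 0.22 and -0.22 ± 0.29, had adjusted p of 0.49 and 0.67 (edgeR's quasi-likelihood test). Without *Hdac3*-/- replicate 2 they were 0.08 and 0.14. Without *Hdac3*-/- replicate 1 they were -0.71 and -0.70, and the first of these passed the threshold with that lone sample assumed to vary like the other group (edgeR's quasi-likelihood test, adjusted p = 1.857e-06).

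**Figure D1:**
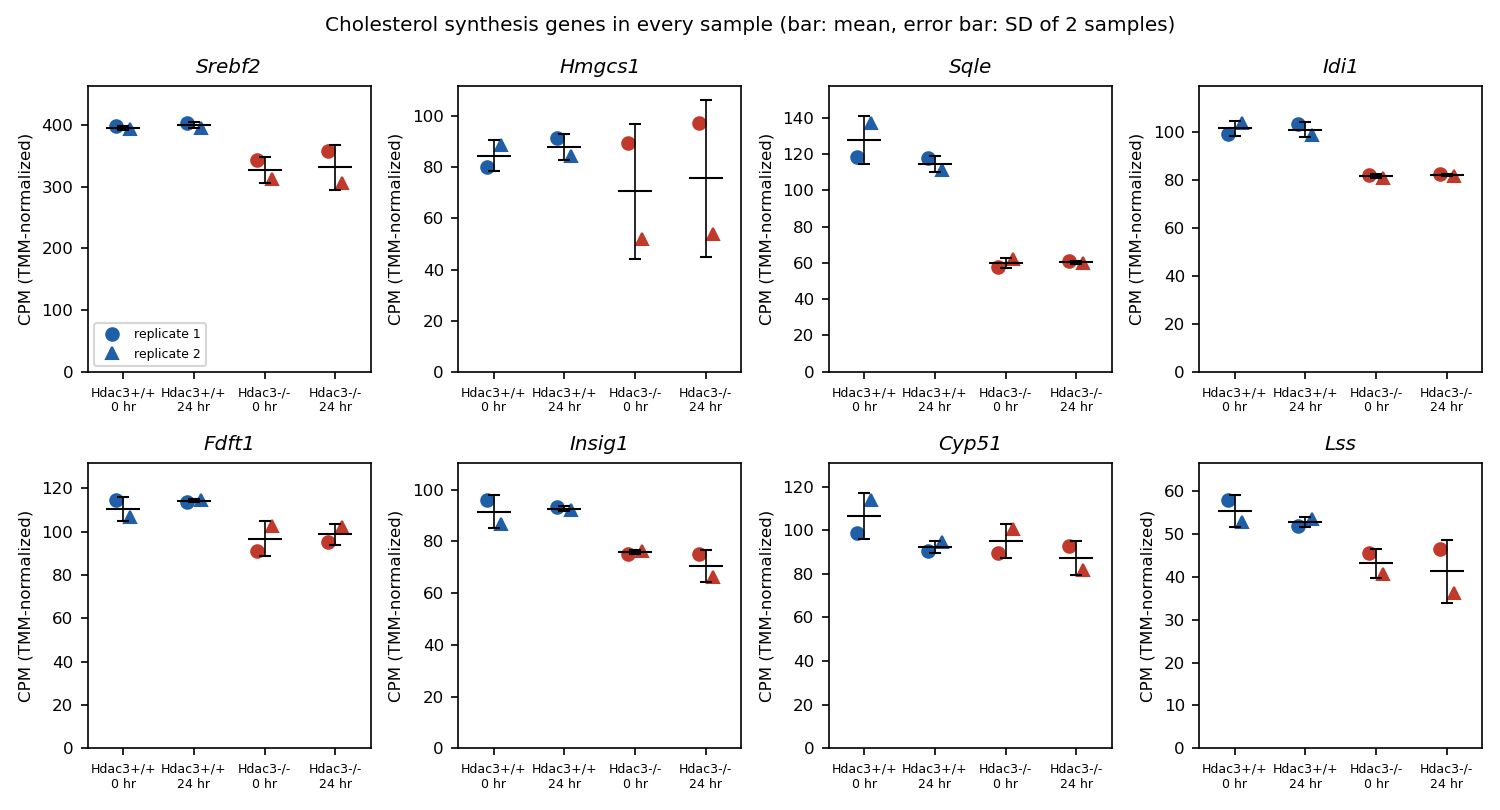
TMM-normalized CPM (y axis, from 0) of each gene in each sample, by genotype and time of DOX (x axis); circles are replicate 1, triangles replicate 2, bars the mean and error bars the SD of 2 samples. *Sqle* is at 57.9 to 61.9 CPM in the 4 *Hdac3*-/- samples and at 111.2 to 136.8 CPM in the 4 *Hdac3*+/+ samples, and *Hmgcs1* splits the *Hdac3*-/- samples.

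Taken as a list, all 8 genes had a log2 fold change below 0 at both times, and 1 of 8 passed the threshold at 0 hr and 3 of 8 at 24 hr. Over all genes, 13.6% of 13226 changed at 0 hr, 7.24% downward and 6.33% upward. At 24 hr 12.9% of 13807 genes changed, 6.9% downward and 6.01% upward. The median of the 8 genes was -0.28 at 0 hr and -0.29 at 24 hr, against 0.0028 and 0.0058 over all genes tested. The 8 genes share libraries and are known to be regulated together, so they are not independent observations. They and the lists below were chosen with earlier results of these data known, so the shares over all genes are given for description and test nothing. In bulk RNA, fewer cells of a type and less RNA per cell cannot be told apart.

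For 6 of the 8 genes, all but *Hmgcs1* and *Cyp51*, every *Hdac3*-/- sample lay below every *Hdac3*+/+ sample at 0 hr, at 24 hr and across all 8 samples. Among all genes tested, 28.7% did so at 0 hr, 28.5% at 24 hr and 16.4% across both times. Only *Sqle* was called lower at both times, as were 4.98% of genes. The summed level of the 8 genes was 1064 to 1083 CPM in *Hdac3*+/+ and 827 to 873 CPM in *Hdac3*-/- cells at 0 hr, and 1045 to 1065 against 787 to 908 CPM at 24 hr.

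The other 15 enzymes of the mevalonate and sterol chain had a median log2 fold change of -0.37 at 0 hr and -0.29 at 24 hr, and 13 of 15 were below 0 at each time. At 0 hr 4 of 15 fell and 0 rose, and at 24 hr 2 of 15 fell and 0 rose. Of all genes tested, 7.24% were called lower at 0 hr and 6.9% at 24 hr. *Nsdhl* and *Ebp* of this list are X-linked, so their values at 24 hr also reflect the X chromosome under *Xist*. Over X-linked genes the median log2 ratio to *Hdac3*+/+ in *Hdac3*-/- replicates 1 and 2 was 0.021 and 0.023 at 0 hr. At 24 hr it was 0.23 and 0.22.

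*Lbr*, the lamin B receptor, which doubles as a sterol reductase, was called at both times. It fell by 0.39 on the log2 scale at 0 hr and at 24 hr (edgeR's quasi-likelihood test, adjusted p = 0.029 and 0.013). *Msmo1*, a methylsterol oxidase, and *Nsdhl*, a sterol dehydrogenase, passed at 0 hr alone, with log2 fold changes of -0.42 ± 0.11 and -0.44 ± 0.10 (edgeR's quasi-likelihood test, adjusted p = 0.045 and 0.024). Leaving out *Hdac3*+/+ replicate 2 at 0 hr ended the calls of these 3 genes at that time, with adjusted p from 0.16 to 0.24, and so did leaving out replicate 1, with adjusted p from 0.15 to 0.31. *Msmo1* was also lost with DESeq2 (adjusted p = 0.063) and in the fit of all 8 samples (0.051). At 24 hr *Lbr* was lost without *Hdac3*+/+ replicate 1 (adjusted p = 0.089) or 2 (0.098).

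*Hsd17b7*, a sterol ketoreductase, was among the enzymes above 0, with log2 fold changes of 0.064 ± 0.20 at 0 hr and 0.51 ± 0.27 at 24 hr. Neither passed the threshold (edgeR's quasi-likelihood test, adjusted p = 0.87 and 0.26), and the groups overlapped at both times. *Hdac3*-/- replicate 1 was at 121.6% and 180.5% of the *Hdac3*+/+ mean, and replicate 2 at 87.3% and 102.6%.

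**Figure D2:**
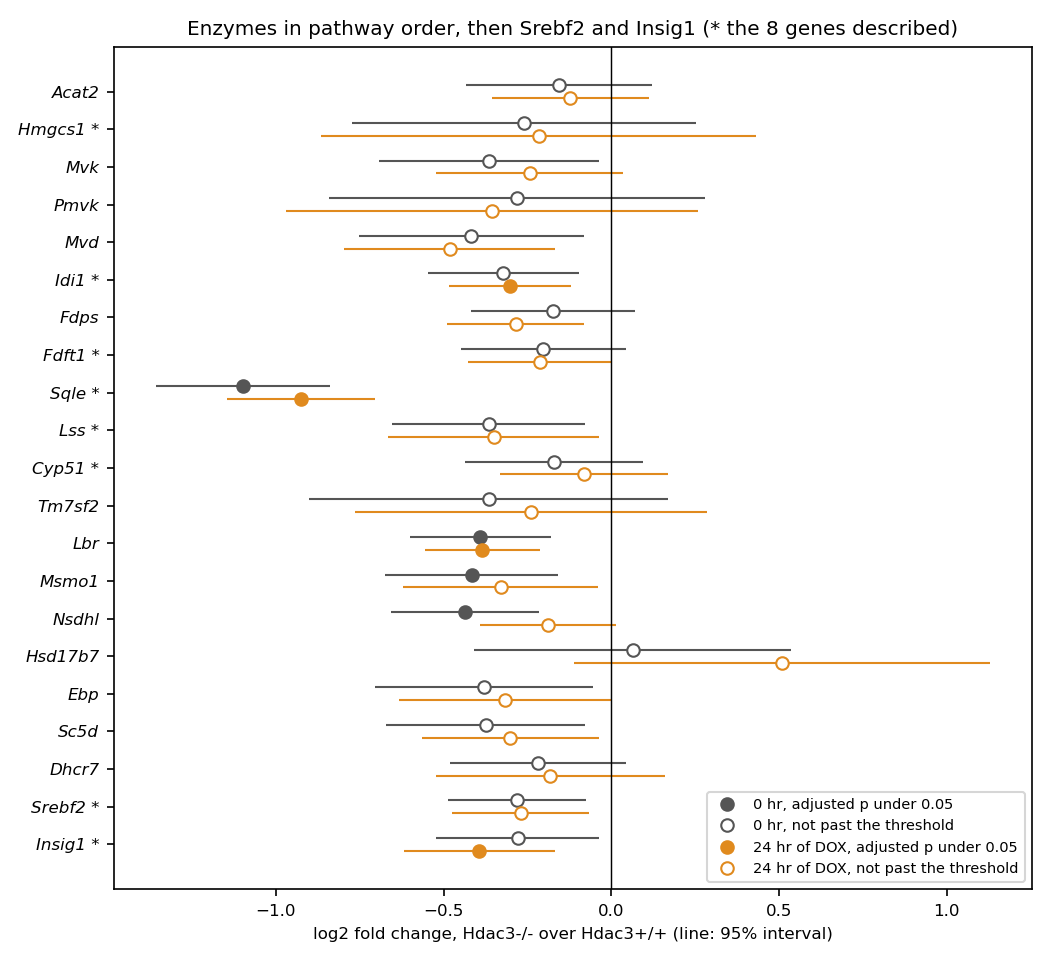
Log2 fold change of *Hdac3*-/- over *Hdac3*+/+ cells (x axis) with its 95% interval for enzymes in pathway order, then *Srebf2* and *Insig1* (y axis; stars mark the 8 genes), in grey at 0 hr and orange at 24 hr; filled points passed an adjusted p of 0.05. *Sqle* is farthest from 0, at -1.10 and -0.93, and *Hsd17b7* lies right of 0 at 0.064 and 0.51 with intervals that span 0.

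Genes of sterol uptake and trafficking also lay below 0, all 6 at each time, with medians of -0.30 and -0.37. Called lower was 1 of 6 at each time, against 7.24% of all genes at 0 hr and 6.9% at 24 hr. *Npc2*, which carries cholesterol out of lysosomes, was lower in *Hdac3*-/- cells at 24 hr (log2 fold change -0.42 ± 0.09, edgeR's quasi-likelihood test, adjusted p = 0.020). Its mean at 0 hr and 24 hr was 159.2 and 190.7 CPM in *Hdac3*+/+ and 148.5 and 142.9 CPM in *Hdac3*-/- cells, and the groups overlapped at 0 hr. The call was lost without *Hdac3*+/+ replicate 1 or 2 (log2 fold change -0.42 and -0.41) or *Hdac3*-/- replicate 1 (-0.34) of 24 hr.

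Of the 7 genes of SREBP control, 0 were called at either time, against 13.6% of all genes at 0 hr and 12.9% at 24 hr. *Scap*, the escort, was at 130.2% of the *Hdac3*+/+ mean in *Hdac3*-/- cells at 0 hr and *Mbtps1*, which makes the first cleavage of SREBP2, at 76.7%, and neither passed the threshold (edgeR's quasi-likelihood test, adjusted p = 0.11 and 0.072). The 5 genes of the branches to dolichol, ubiquinone and geranylgeranyl groups had 0 calls, with medians of -0.064 and 0.067.

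Among the 5 tested genes of LXR and sterol efflux, 1 rose, against 6.33% of all genes called higher at 0 hr and 6.01% at 24 hr. *Abca1*, the cholesterol exporter, had 76.1 and 83.4 CPM in *Hdac3*+/+ and 125.4 and 144.8 CPM in *Hdac3*-/- cells at 0 hr. Its log2 fold change was 0.75 ± 0.11 at 0 hr and 0.95 ± 0.12 at 24 hr (edgeR's quasi-likelihood test, adjusted p = 0.0058 and 0.0024). The call at 0 hr was lost without *Hdac3*+/+ replicate 1 (adjusted p = 0.078) or 2 (0.050). The other 4 tested genes of this list were not called.

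The 10 genes of fatty acid synthesis, the arm driven mainly by SREBP1, had medians of -0.053 and -0.067. Of these, 6 of 10 lay below 0 at 0 hr and 5 of 10 at 24 hr. Called lower were 2 of 10 at 0 hr and 3 of 10 at 24 hr, against 7.24% and 6.9% of all genes. *Fads1* and *Fads2*, the fatty acid desaturases that make polyunsaturated chains, fell at both times, *Fads1* with log2 fold changes of -0.67 ± 0.10 and -0.60 ± 0.09 (edgeR's quasi-likelihood test, adjusted p = 0.0053 and 0.0042) and *Fads2* with -0.42 ± 0.10 and -0.48 ± 0.10 (adjusted p = 0.027 and 0.016). *Acly*, the source of cytosolic acetyl-CoA, fell at 24 hr (log2 fold change -0.34 ± 0.07, edgeR's quasi-likelihood test, adjusted p = 0.018). At 0 hr *Fads1* and *Fads2* were lost without either *Hdac3*+/+ sample (adjusted p from 0.059 to 0.21). At 24 hr *Fads1* was lost without *Hdac3*+/+ replicate 1 (0.051), and *Fads2* and *Acly* without either *Hdac3*+/+ sample or *Hdac3*-/- replicate 2 (0.059 to 0.13). *Fasn* and *Acaca*, the core of fatty acid synthesis, were not called at either time. *Fasn* was at 83.5% of the *Hdac3*+/+ mean at 0 hr and 88.5% at 24 hr (edgeR's quasi-likelihood test, adjusted p = 0.070 and 0.13). Each of its *Hdac3*-/- samples lay below each *Hdac3*+/+ sample across both times, as for 16.4% of all genes. *Acaca* was at 97.9% and 108.0%.

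**Figure D3:**
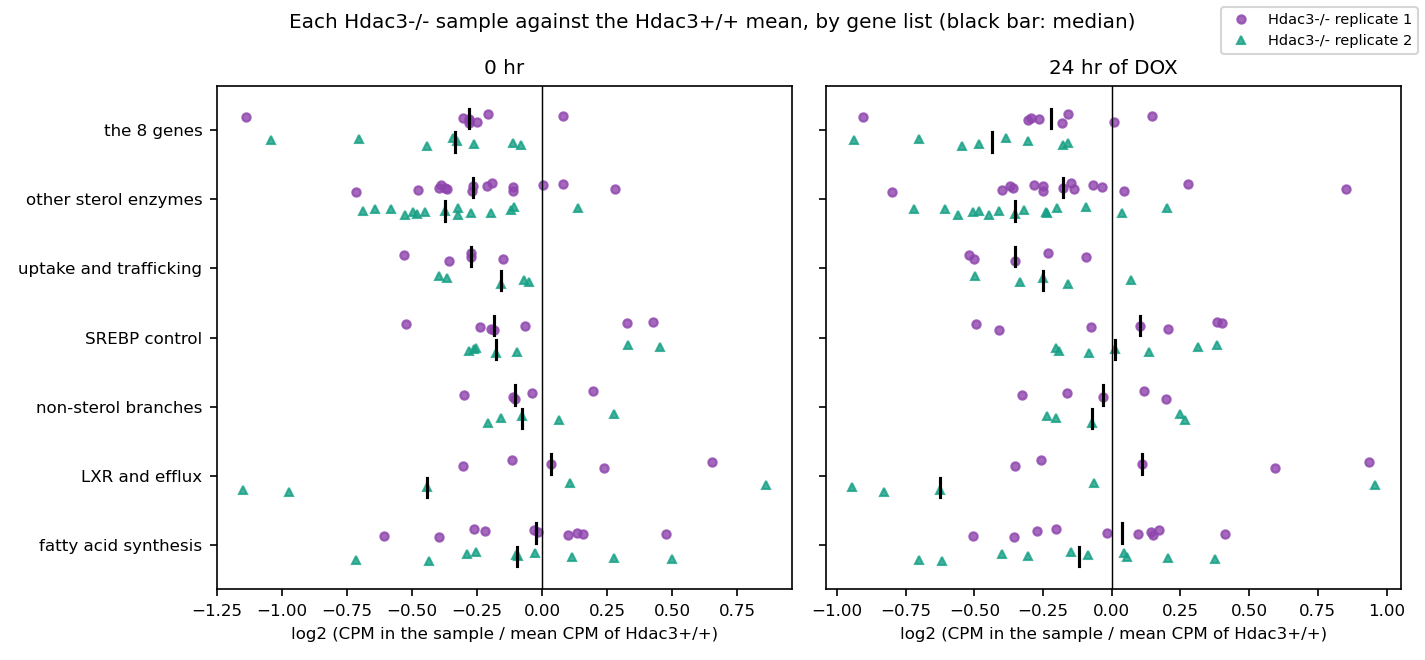
Log2 ratio of each *Hdac3*-/- sample to the mean of the *Hdac3*+/+ samples of the same time (x axis) for the genes of each list (y axis) that were tested and had a read in every sample, with purple circles for replicate 1, green triangles for replicate 2 and black bars for medians. The medians of the 8 genes lie left of 0 for both samples at both times, and the SREBP control and fatty acid lists spread to either side of 0.

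With 24 hr of *Xist* induction, no change of the 8 genes passed the test. In *Hdac3*+/+ cells their log2 changes from 0 hr to 24 hr lay between -0.22 (*Cyp51*) and 0.045 (*Hmgcs1*), and 0 of 8 were called by edgeR, limma or DESeq2, or reached an unadjusted p below 0.05, against 0.217% of all genes called. In *Hdac3*-/- cells they lay between -0.11 and 0.10, with 0 of 8 called by any of the 3 tools, or at an unadjusted p below 0.05, against 0.0217% of genes. *Cyp51* and *Sqle* had the largest changes in *Hdac3*+/+ cells, -0.22 ± 0.11 and -0.17 ± 0.09 (edgeR's quasi-likelihood test, adjusted p = 0.78 and 0.82).

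The difference between genotypes was then compared between the times through the interaction of genotype and time. Its values for the 8 genes lay between -0.10 (*Insig1*) and 0.19 (*Sqle*, 95% interval -0.12 to 0.50), and 0 of 8 passed, or had an unadjusted p below 0.05. Over all genes the test called 0 of 13807 (0.0%), with 260 at an unadjusted p below 0.05, while DESeq2 called 1 and limma 0. Whether *Idi1* and *Insig1*, called at 24 hr alone, differ between the times is therefore not shown.

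Reads that cover a B6 or Cast variant gave the level of each allele, with 30.1% to 31.6% of reads assigned. The d-score, B6 reads over all allelic reads, ranged over the 8 samples from 0.34 to 0.50 for *Hmgcs1* and from 0.46 to 0.51 for *Sqle*. It ranged from 0.54 to 0.58 for *Srebf2*, 0.57 to 0.62 for *Insig1*, 0.51 to 0.61 for *Lss*, 0.39 to 0.47 for *Fdft1*, 0.44 to 0.50 for *Cyp51* and 0.40 to 0.56 for *Idi1*, the last on as few as 48 reads. No gene was close to monoallelic.

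In *Hdac3*+/+ cells at 0 hr the alleles of 4 genes differed. *Insig1* (log2 B6:Cast ratio 0.56 ± 0.10), *Lss* (0.51 ± 0.11) and *Srebf2* (0.28 ± 0.07) leaned to B6 and *Fdft1* (-0.30 ± 0.10) to Cast, with adjusted p of 0.00049, 0.0023, 0.0041 and 0.032 (edgeR's quasi-likelihood test on allelic counts). In this comparison 31.0% of 9595 genes were called, so an allelic difference was common. *Hmgcs1*, *Sqle*, *Idi1* and *Cyp51* were not called. A bias of mapping toward the B6 reference was not tested.

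*Sqle* was lower on both alleles. At 0 hr the B6 allele had 70.1 and 73.9 CPM, here over the allelic reads of the sample, in *Hdac3*+/+ and 29.5 and 33.1 in *Hdac3*-/- cells, which is 43.5% of the *Hdac3*+/+ mean. The Cast allele had 66.9 and 74.4 against 32.6 and 34.5, or 47.5%. At 24 hr the B6 and Cast alleles were at 52.2% and 53.2%. Neither allele overlapped between genotypes at either time.

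The B6:Cast ratio itself did not differ detectably between genotypes in the 8 genes. At 0 hr 0 of 8 were called by edgeR or limma, or had an unadjusted p below 0.05, against 0.667% of 9595 genes called. *Hmgcs1* had the largest value, -0.40 ± 0.20 (edgeR's quasi-likelihood test, adjusted p = 0.61), from a d-score of 0.34 (exact 95% interval 0.27 to 0.41, 194 reads) in *Hdac3*-/- replicate 2 at 0 hr. The same replicate number at 24 hr had 0.46 (0.39 to 0.54, 194 reads), so the skew was not seen at both times while the low total was. With DOX in *Hdac3*+/+ cells 0 of 8 ratios changed, against 1.61% of genes, and for the interaction 0 of 8, against 0.208%.

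The pathway also has X-linked members, on the chromosome that carries the inducible *Xist*. These were *Nsdhl* and *Ebp*, which act late in the chain, and *Mbtps2*, the second protease of SREBP2. *Nsdhl* had d-scores of 0.44 and 0.40 in *Hdac3*+/+ cells at 0 hr and 0.20 and 0.31 at 24 hr, and 0.39 and 0.37 followed by 0.33 and 0.34 in *Hdac3*-/- cells. *Ebp* went from 0.53 and 0.53 to 0.44 and 0.38 in *Hdac3*+/+, and from 0.48 and 0.49 to 0.46 and 0.45 in *Hdac3*-/- cells. *Mbtps2* went from 0.43 and 0.46 to 0.33 and 0.28, and from 0.47 and 0.48 to 0.43 and 0.40.

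In all 3 the B6 share was lower at 24 hr in every sample, and the *Hdac3*+/+ samples at 24 hr were the lowest. Over X-linked genes the median d-score at 24 hr was 0.29 and 0.28 in *Hdac3*+/+ and 0.40 and 0.39 in *Hdac3*-/- cells. The log2 B6:Cast ratio changed with DOX in *Hdac3*+/+ cells by -1.09 ± 0.21 for *Nsdhl* and -0.70 ± 0.17 for *Ebp*, which passed the threshold, and by -0.83 ± 0.21 for *Mbtps2*, which did not (edgeR's quasi-likelihood test, adjusted p = 0.0055, 0.039 and 0.052). The interaction with genotype was 0.78 ± 0.29, 0.56 ± 0.24 and 0.51 ± 0.28, and none passed over all 9595 genes (adjusted p = 0.93, 1 and 1).

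The total level of *Nsdhl* was 183.9 and 181.4 CPM in *Hdac3*+/+ cells at 0 hr and 130.3 and 141.1 CPM at 24 hr, and 141.9 and 129.5 followed by 123.4 and 114.9 CPM in *Hdac3*-/- cells. The log2 change with DOX was -0.44 ± 0.09 in *Hdac3*+/+ and -0.18 ± 0.09 in *Hdac3*-/- cells (edgeR's quasi-likelihood test, adjusted p = 0.10 and 1), while that of *Ebp* was -0.39 ± 0.14 and that of *Mbtps2* -0.32 ± 0.10 in *Hdac3*+/+ cells (adjusted p = 0.53 and 0.41). Whether *Nsdhl* passed depended on the fit, since DESeq2 gave an adjusted p of 0.0498, just past the threshold, and the 4 *Hdac3*+/+ samples alone 0.00818.

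**Figure D4:**
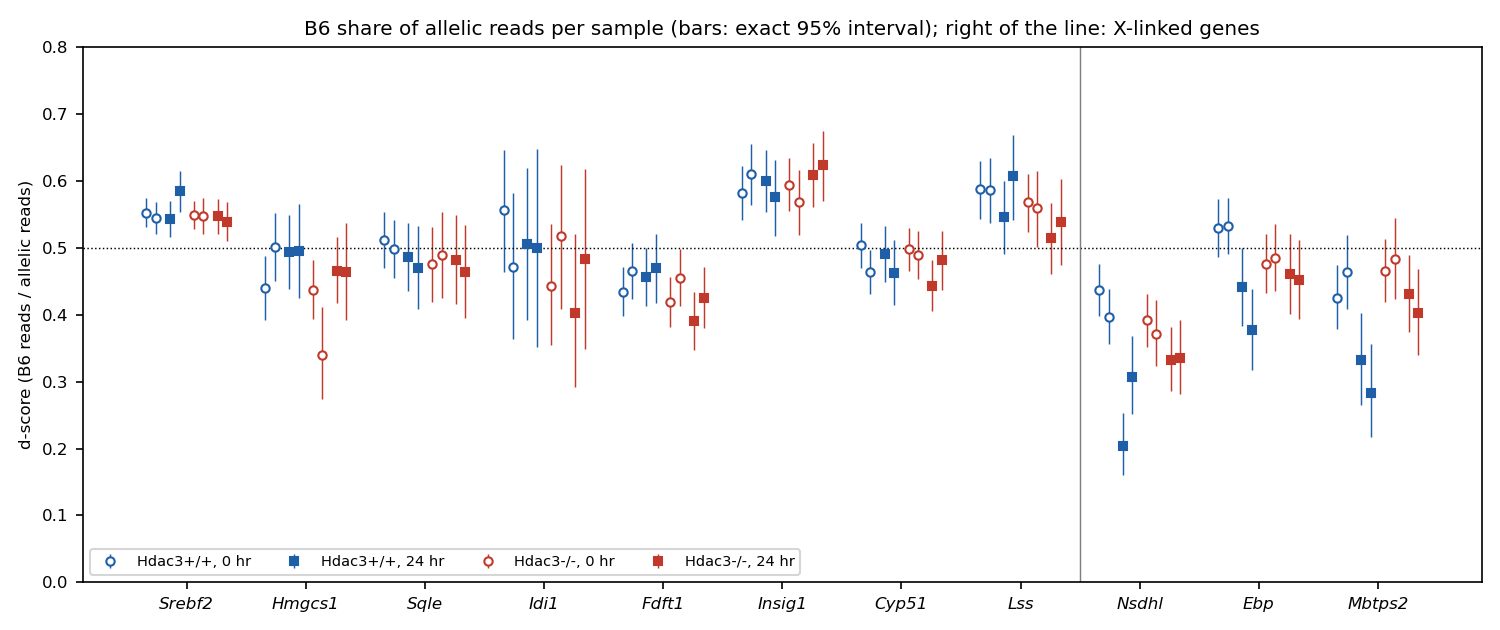
d-score (y axis, B6 reads over allelic reads) of each sample with its exact 95% interval, for the 8 autosomal genes and, right of the grey line, the X-linked *Nsdhl*, *Ebp* and *Mbtps2* (x axis); blue is *Hdac3*+/+, red *Hdac3*-/-, open 0 hr, filled 24 hr, and the dotted line is equal expression. The filled blue points of the 3 X-linked genes lie below the open ones, at 0.20 and 0.31 for *Nsdhl*.

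Over the 8 samples, the 28 pairs among the 8 genes all had a Pearson r above 0, with a median of 0.75, from 0.022 (*Hmgcs1* and *Fdft1*) to 0.99 (*Sqle* and *Idi1*). These are descriptions over 8 points that share genotype. The genes whose log2 CPM were most like the mean of the 8 were *Cables1*, *Ahr*, *Cobll1*, *Sgpp1*, *Bnc2*, *Ank3*, *Ablim1*, *Fads1*, *Abcc5* and *Morc1*, with r from 0.989 to 0.995. Only 1 of these 10 was also among the 10 by Spearman's rho, and 0 were by deviations from the group means. Among the other 15 enzymes 4 had an r above 0.91, the 95th percentile of all genes.

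Some markers of cell state also differed between genotypes, and their part in the levels above was not tested. Among 8 ESC markers, *Nanog* and *Zfp42* rose at 0 hr (log2 fold changes 0.675 and 0.70) and *Dppa3* fell (-2.21). All 3 were called at both times by edgeR's quasi-likelihood test, against 13.6% of all genes at 0 hr and 12.9% at 24 hr. *Pou5f1*, *Sox2*, *Esrrb*, *Klf4* and *Tfcp2l1* were not called. Of the primed markers *Dnmt3b* fell (-0.65 at 0 hr), but of the 5 tested at 0 hr 2 lay below 0 and 3 above. The list summed to 211 to 243 CPM in *Hdac3*+/+ and 162 to 200 CPM in *Hdac3*-/- cells at 0 hr. In that sum *Dnmt3b* alone had a mean of 136.2 CPM in *Hdac3*+/+ and 87.4 CPM in *Hdac3*-/- cells. The primitive endoderm markers summed to 13.2 to 14.2 against 17.2 to 26.0 CPM, and the fibroblast markers to 40.8 to 53.2 against 29.1 to 40.7 CPM. Of the 3 endoderm markers tested, *Sox7* was called lower and *Dab2* higher at 0 hr (edgeR's quasi-likelihood test, adjusted p = 0.047 and 0.028). Neither was called at 24 hr (same test, adjusted p = 0.33 and 0.12).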

How the data were processed

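RNA-seq of 8 TX1072 samples was used. For each sample the authors deposited 1 table per gene with raw counts of all reads and of those assigned to B6 or Cast, and the d-score as a fraction. The submitters' processing notes name TopHat2 2.1.0, bedtools, featureCounts 1.5.1 and mm10. Read pairs were counted on exons with a strand setting, per the study's methods. How RNA-seq reads were assigned to alleles was not given in the sources used here.

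Computed from the counts were CPM after TMM scaling, TPM from GENCODE M21 exon lengths, and the quasi-likelihood test of edgeR (version 4.0.16 in R 4.3.3) with Benjamini-Hochberg adjustment and a threshold of 0.05. The comparison at 0 hr used its 4 samples, as in the study, and the others a fit of all 8. Genes needed a TPM above 1 in 2 samples. B6 and Cast counts were fitted as 2 columns per sample with a B6 term per group, for genes with at least 10 allelic reads in all samples. Alternatives used limma 3.58.1 and DESeq2 1.42.0, and other steps Python 3.11.15, numpy 2.4.6, pandas 2.3.3 and scipy 1.17.1. The models were run on simulated data with the same spread in every group and, for alleles, counting error only. The real groups differed in spread, so the simulations do not show how the tests behave with differences between clones. Intervals of d-scores are Clopper-Pearson and cover counting error only.

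Named were the 8 genes, called genes of the pathway and marker lists, *Nsdhl*, *Ebp*, *Mbtps2*, *Hdac3*, *Xist* and the 10 genes most like the 8. *Hsd17b7*, *Pou5f1*, *Sox2*, *Esrrb*, *Klf4*, *Tfcp2l1*, *Scap*, *Mbtps1*, *Fasn*, *Acaca*, *Col1a1*, *Col1a2*, *Thy1*, *Postn* and *Col3a1* were added after their values were seen. Some genes of these lists enter the counts and medians and are not reported here by name. The members and lists were chosen with earlier results of these data known. P-values measure the spread between these samples, which the study calls biological duplicates. The 2 samples of each group differed beyond counting noise, at 3.06 to 12.4 chi-square units for each degree of freedom.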

Additional observations from a re-analysis of the deposited data

How the results depend on the processing

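*Sqle* kept its direction and its call throughout. At 0 hr and 24 hr, 3107 and 2939 genes were called without the TPM filter (1795 and 1783 with it). Of the 8 genes, 2 were called at 0 hr without the filter (*Sqle* and *Srebf2*) and 2 in the fit of all 8 samples (*Sqle* and *Idi1*), and 1 at 24 hr in the fit of its 4 samples. With DOX in *Hdac3*+/+ cells, limma called 14 genes, DESeq2 114, no filter 275 and the 4 samples alone 292 (30 in the report), and 1 of the other 15 enzymes under each of the last 3. In *Hdac3*-/- cells the counts were 16, 36 and 1 with DESeq2, no filter and the 4 samples alone (3 in the report). The interaction had 1 call with DESeq2 and 6 without the filter. limma on the log2 B6:Cast ratio called 2 genes for genotype, 97 for DOX and 0 for the interaction (64, 154 and 20 in the report).

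Leaving out each sample gave 326 to 3353 genes at 0 hr, 1 to 5 of the 8 genes and 0 to 9 of the other enzymes. The lowest gene counts were without *Hdac3*+/+ replicate 1 (326) and 2 (343), and the 5 and the 9 were without *Hdac3*-/- replicate 1. At 24 hr it gave 440 to 1990 genes, 1 to 4 of the 8 and 0 to 3 enzymes. Without *Hdac3*+/+ replicate 1 or 2 at either time, or *Hdac3*-/- replicate 2 at 24 hr, only *Sqle* was called. The DOX comparison gave 2 to 85 genes in *Hdac3*+/+ cells. The B6:Cast comparisons gave 12 to 121 genes for genotype, 83 to 158 for DOX and 3 to 21 for the interaction. Not every named gene was followed in these runs, and *Hsd17b7* was not. Among those followed, *Hmgcs1* changed sign, ranging from -0.71 to 0.0803 at 0 hr and from -0.70 to 0.14 at 24 hr. So did *Cyp51* at 24 hr (-0.18 to 0.0061) and *Mbtps2* with DOX in *Hdac3*-/- cells (-0.17 to 0.027).

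The replicate number was also used as a block. Differences between replicates 1 and 2 correlated at 0.66 across genes between the *Hdac3*-/- times and at 0.19 to 0.30 between other groups, but the labels do not say that a number marks a clone, culture or day, so this is a hint from the data and the samples share only a number. The block raised the calls to 2946 genes, 4 of the 8 and 7 other enzymes at 0 hr, and to 3366, 5 and 5 at 24 hr, adding *Srebf2* (adjusted p = 0.029 and 0.016) and *Lss* (0.035 and 0.040) at both times. Within genotypes it gave 1477 genes, 1 of the 8 (*Cyp51*) and 2 enzymes for DOX in *Hdac3*+/+ cells, 260 genes and 1 enzyme in *Hdac3*-/- cells, and 253 for the interaction. For the B6:Cast ratio it gave 109 genes for genotype and 31 for the interaction. The causes of these shifts were not tested. With 2 samples a group, changes near the size of *Idi1* (log2 about -0.30) lie at the limit of what these data resolve.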
